A study of Mus musculus with 16 samples.

Results

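Hypoxia-inducible target genes were described in whole lung and liver RNA of newborn Man1a2 mutant mice. They are 10 of the 25054 gene entries of the expression table and were taken by symbol as well-known members of the oxygen-sensing pathway: Hif1a, Vegfa, Adm, Bnip3, Egln1, Egln3, Ankrd37, Pfkfb3, Slc2a1 and Ndrg1. Levels are given in CPM, counts scaled to the size of the library, and all 10 averaged at least 1 CPM. Parent mice carried a Man1a2 allele lacking exon 2 on a C57BL/6J background and received N-acetylcysteine (NAC, an antioxidant and cysteine donor) at up to 1 g/kg body weight, or placebo (water), from the week before breeding until delivery. Pups were inspected every 8 h for 24 h, dead pups were harvested when found and live pups at the end, so that outcome, age at harvest and time since death cannot be told apart. There were 16 libraries, 1 for each combination of pup group (live pups that were wild-type, WT, or heterozygous, and dead pups that were heterozygous or null), treatment (NAC or placebo) and tissue label (lung or liver). WT libraries were all from live pups and null libraries all from dead pups, so genotype is also partly tied to outcome. Each library was made from RNA pooled over 3 experiments, or 2 for dead heterozygous pups. No library of any combination was repeated, so the spread available to a test is that between different pools, and no combination has its own replicate error.

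In this pathway, hypoxia-inducible factors are transcription factors whose alpha subunits, HIF-1α among them, are hydroxylated by prolyl hydroxylases when oxygen is present, bound by the von Hippel-Lindau protein and degraded. In low oxygen the alpha subunit escapes this, pairs with ARNT and binds a short core motif (ACGTG or GCGTG) near target genes for blood vessel growth, glucose uptake, glycolysis, mitophagy and feedback on the pathway itself. Because that control acts on the HIF-1α protein, the Hif1a transcript does not measure the activity of the factor. Fetal lung develops at low oxygen, and the first breaths raise it.

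The promoter windows of 4 of these genes are shown because they cover the gene with the smallest p between NAC and placebo (Pfkfb3), the genes with the most core motifs (Bnip3 and Ankrd37), and the gene that departed from the others (Vegfa). Each is the 250 bases before a RefSeq start site in build GRCm38.p6, written 5′ to 3′ on the strand of the gene, with every ACGTG or GCGTG on either strand (CACGT or CACGC when read on this strand) in capitals. The windows are chr2:11502091-11502340 (minus strand, before the inner of 2 Pfkfb3 starts), chr7:138909507-138909756 (minus strand, Bnip3), chr8:45999851-46000100 (minus strand, Ankrd37) and chr17:46032378-46032627 (minus strand, before the outer of 2 Vegfa starts).
Pfkfb3: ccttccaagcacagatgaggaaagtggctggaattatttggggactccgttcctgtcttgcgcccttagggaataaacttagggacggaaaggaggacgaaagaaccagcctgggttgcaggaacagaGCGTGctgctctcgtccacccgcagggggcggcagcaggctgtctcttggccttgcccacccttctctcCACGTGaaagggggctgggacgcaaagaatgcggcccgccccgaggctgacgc
Bnip3: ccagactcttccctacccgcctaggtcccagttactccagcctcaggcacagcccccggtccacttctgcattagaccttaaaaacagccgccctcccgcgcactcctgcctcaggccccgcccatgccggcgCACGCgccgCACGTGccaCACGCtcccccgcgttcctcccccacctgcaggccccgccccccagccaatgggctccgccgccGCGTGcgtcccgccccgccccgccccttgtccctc
Ankrd37: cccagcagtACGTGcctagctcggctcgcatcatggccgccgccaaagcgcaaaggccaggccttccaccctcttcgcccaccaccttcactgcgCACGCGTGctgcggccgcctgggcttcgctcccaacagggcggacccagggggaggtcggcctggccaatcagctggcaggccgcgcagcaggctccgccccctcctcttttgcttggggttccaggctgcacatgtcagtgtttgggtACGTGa
Vegfa: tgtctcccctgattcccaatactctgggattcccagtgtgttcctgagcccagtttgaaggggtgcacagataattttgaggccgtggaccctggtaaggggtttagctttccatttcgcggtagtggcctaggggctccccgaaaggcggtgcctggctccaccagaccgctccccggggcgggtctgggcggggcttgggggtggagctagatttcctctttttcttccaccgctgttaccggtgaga
The inner Vegfa window, not shown, holds 2 matches. The Pfkfb3 window holds the palindrome CACGTG, read as ACGTG on both strands, and 1 GCGTG. The Bnip3 and Ankrd37 windows hold 5 and 4 matches, and the outer Vegfa window holds none. In all, 9 of the 10 genes matched an entry of the RefSeq promoter table, with 11 windows, and Ndrg1 was not in it. ACGTG was found in 9 of the 11 windows against 16.6% of all 32851 promoters in the table, GCGTG in 7 against 28.2%, and either in 10 against 38.6%. The share of G and C was 50.8% in the Egln3 window and up to 86.0% in the others, against a median of 52.4% of all promoters. A match describes these letters and is not a measured binding site.

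The genes lie on 7 chromosomes of build GRCm38, placed here with GENCODE release M21. Hif1a, the regulated alpha subunit, is on chr12:73901375-73947530 (plus strand). The oxygen-sensing prolyl hydroxylases Egln1 (PHD2) and Egln3 (PHD3), which act back on HIF alpha subunits, are on chr8:124908587-124949324 and chr12:54178981-54203860 (both minus). The secreted factors are Vegfa, a growth factor for endothelium and lung vessels, on chr17:46016993-46032369 (minus), and Adm, the vasodilator peptide adrenomedullin, on chr7:110627661-110629820 (plus). Slc2a1 encodes the glucose transporter GLUT1 and is on chr4:119108711-119137983 (plus), and Pfkfb3, whose enzyme makes the activator of phosphofructokinase, is on chr2:11471433-11554077 (minus). Bnip3, a mitophagy receptor, is on chr7:138890836-138909519, the stress-responsive Ndrg1 on chr15:66929318-66969640 and Ankrd37, an ankyrin-repeat protein, on chr8:45996902-46005707 (all minus). Antisense or other genes overlap Hif1a, Bnip3, Ankrd37, Slc2a1 and Ndrg1 in the annotation, and whether strand was used in counting was not given in the sources used here, so the counts of those 5 may include reads of an overlapping gene. For Hif1a the overlap includes a protein-coding model on the same strand (Gm49321). For Ankrd37 it is with the protein-coding genes Ufsp2 and Lrp2bp on the opposite strand.

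Totals ran from 7236865 to 16107749 counts per library (median 12962312). Several tissue labels went against the tissue markers. By the surfactant gene Sftpc and by albumin (Alb), 7 libraries had lung content (Sftpc at or above 1000 CPM, Alb below 1000), 8 had liver content (Alb at or above 50000 CPM), and the library of dead null placebo pups labelled lung was mixed, with Sftpc at 5553 and Alb at 9280 CPM. Content went against the label in 8 libraries and with it in 7. Both dead null NAC libraries, labelled lung and liver, had liver content. By their labels they come from the same pup group and treatment and may share pups, so within liver content they cannot be taken as independent. In live WT and live heterozygous pups the NAC libraries had the content of their labels and the placebo libraries did not, so in live pups treatment and label agreement cannot be told apart. Libraries are therefore named by pup group, treatment and content. Pup group and treatment come from the same labels as tissue and were not checked, so every comparison by them rests on those labels. Dead null pups had no lung-content and liver-content pair in either treatment. Difference beyond counting noise, as mean chi-square per gene, was 178 between the 2 dead null NAC libraries. It was 17.5 between the dead null NAC library labelled liver and the live heterozygous placebo library of liver content. What these values mean for the labels was not tested. In all, 6 lung epithelial genes summed to 9145 to 15226 CPM in lung-content and 4.96 to 11.7 CPM in liver-content libraries. The sums of 6 hepatocyte genes were 15.7 to 170 and 110079 to 194766 CPM. These sums include Sftpc and Alb, so their separation was partly set by the grouping. Of the genes it did not use, Nkx2-1 was at 163 to 192 CPM in lung-content and 0 to 0.079 CPM in liver-content libraries. Hnf4a was at 0 to 0.84 and 281 to 630 CPM. Man1a2 itself was read at 29.7 to 75.4 CPM in all libraries and at 34.3 to 60.4 CPM in the libraries labelled null, but a count over the whole gene does not single out exon 2 and so does not check the genotype.

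The first comparison asked which of these genes differ between the organs in live pups. Hif1a and Vegfa were higher in lung content, and Bnip3, Ndrg1 and Egln3 were higher in liver content. Hif1a was read at 116 and 135 CPM in the lung-content libraries of NAC WT and NAC heterozygous pups and at 86.7 and 90.2 CPM with placebo, against 45.3 to 51.5 CPM in the 4 live liver-content libraries, with no overlap. Its log2 fold change (lung over liver content) was 1.12 (SE 0.20, adjusted p = 0.000417 by edgeR's quasi-likelihood test with Benjamini-Hochberg adjustment). Vegfa was read at 279 and 237 CPM with NAC and 505 and 484 CPM with placebo in lung content, against 112 to 204 CPM in liver content (log2 fold change 1.43, SE 0.21, adjusted p = 7.14e-05). Vegfa was the most abundant of the 10 per length in live lung content, at 87.8 ± 32.2 CPM per kb of exon (SD, n = 4), and stood at 31.7 ± 10.7 CPM per kb in live liver content. The 2 secreted factors differed in level, since Adm was at 5.89 ± 4.78 and 3.59 ± 4.03 CPM per kb.

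Bnip3 was the most abundant of the 10 per length in live liver content, at 119 ± 80.3 CPM per kb (SD, n = 4) against 36.0 ± 18.6 in lung content. Its 4 live liver-content libraries read 539, 171, 221 and 150 CPM (NAC WT, NAC heterozygous, placebo WT, placebo heterozygous). All were above the 126, 109, 49.7 and 41.9 CPM of the lung-content libraries of the same pup groups and treatments. The log2 fold change was -1.79 (SE 0.39, adjusted p = 0.00165, edgeR). Ndrg1 read 496, 185, 125 and 71.5 CPM in liver content and 59.9, 60.6, 32.0 and 23.6 CPM in lung content in that order (log2 fold change -2.14, SE 0.57, adjusted p = 0.00542). Here too the groups did not overlap, nor did they for Hif1a, Vegfa or Egln3. How many of all genes separate the organs in this way was not counted. Since 69.4% of all genes were called between the organs in this fit, the lack of overlap is given as a description only. Egln3 was at 105, 35.5, 22.7 and 25.9 CPM in liver content and 19.8, 9.89, 16.8 and 8.67 CPM in lung content, a log2 fold change of -1.56 (SE 0.58, adjusted p = 0.0324). That call was lost without any of 5 of the 8 libraries, namely placebo WT (-1.61) and placebo heterozygous (-1.52) of liver content, NAC WT of liver content (-1.07), NAC heterozygous of lung content (-1.26) and placebo heterozygous of lung content (-1.36). Fewer cells of a type and less RNA per cell cannot be told apart in RNA of whole organs.

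**Figure D1:**
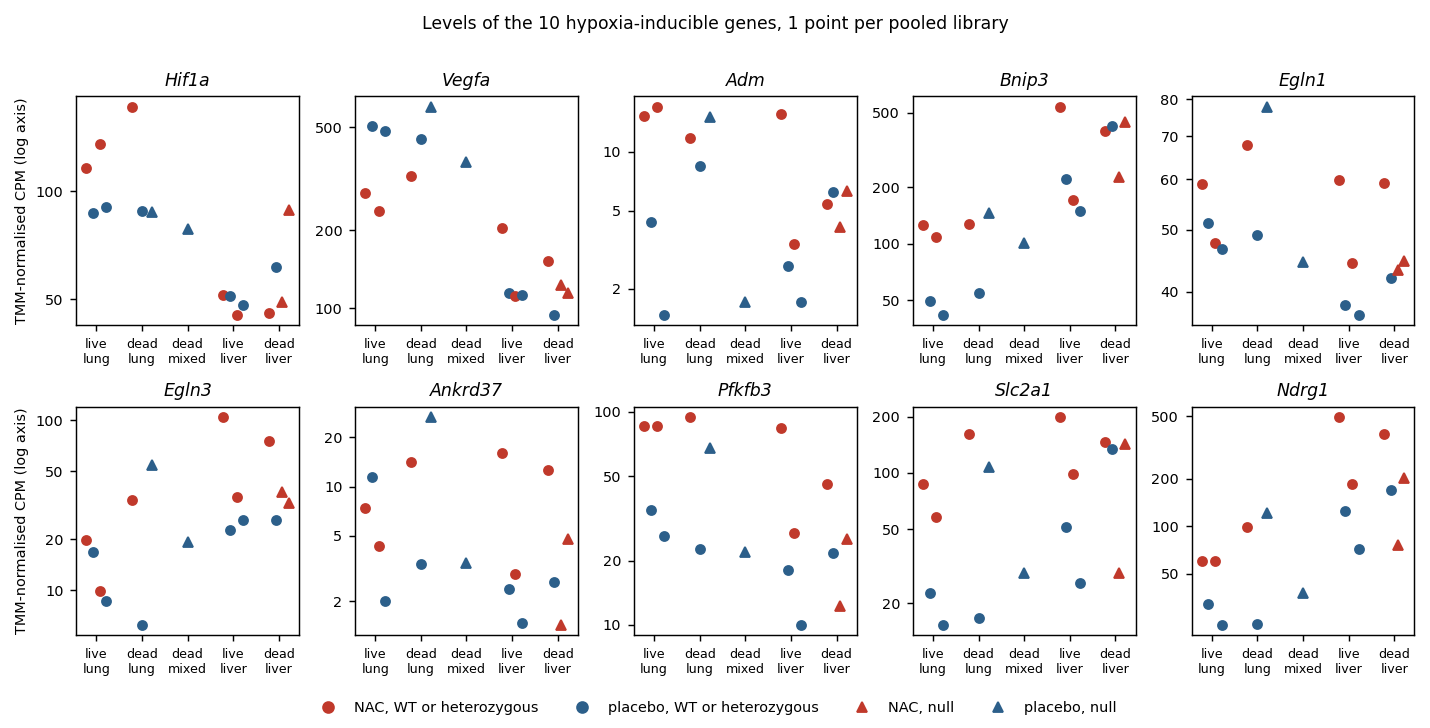
Level of each of the 10 genes in every library, as CPM on a log axis, by content, with the mixed library apart. Each point is 1 library. Vegfa stands higher in lung-content libraries, and Hif1a does so in live pups. The liver-content dead null NAC library labelled lung has Hif1a at 88.6 CPM, above the lowest lung-content value of 86.7 CPM. Bnip3, Ndrg1 and Egln3 reach their highest levels in liver-content libraries.

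The other 5 genes did not pass between organs in this fit. Egln1 had the narrowest levels, 46.7 to 58.9 CPM in live lung and 36.8 to 59.8 CPM in live liver content (log2 fold change 0.22, SE 0.19, adjusted p = 0.302, edgeR). Values for Pfkfb3 (0.89), Adm (0.64), Ankrd37 (0.59) and Slc2a1 (-1.01) also missed the threshold. The 2 libraries of a pup group and treatment share those labels, and whether they share pups was not given in the sources used here. A fit of the 8 live libraries took pup group and treatment as a block and was added after seeing the data. It called 7 of the 10 genes, where 67.7% of all genes were called (33.0% higher and 34.7% lower in lung content). It added Slc2a1 and Pfkfb3 to the 5. Slc2a1 was lower in lung content in 4 of 4 pairs, its liver-content level being 1.67 to 2.27 times the lung-content level (blocked log2 fold change -0.95, SE 0.16, adjusted p = 0.00135, edgeR). Pfkfb3 was 1.02 to 3.19 times as high in lung content (1.02, SE 0.28, adjusted p = 0.0127). Without the block 5 of the 10 genes were called, where 69.4% of all 14184 genes tested were called, 33.5% higher and 35.9% lower in lung content, so the share is no higher than the background. With library size alone in place of TMM scaling, the median log2 fold change of all genes moved from -0.05 to 0.61, and 7 of the 10 genes and 9872 of all 14184 were called. On the libraries whose label and content agree, Vegfa was at 0.73 (adjusted p = 0.118) and Ankrd37 turned to -0.66, as it did, to -0.29, without the live WT placebo library of lung content. Without the live WT NAC library of liver content, Adm was called at 1.37 (adjusted p = 0.0129) and Pfkfb3 at 1.41 (adjusted p = 0.0268).

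**Figure D2:**
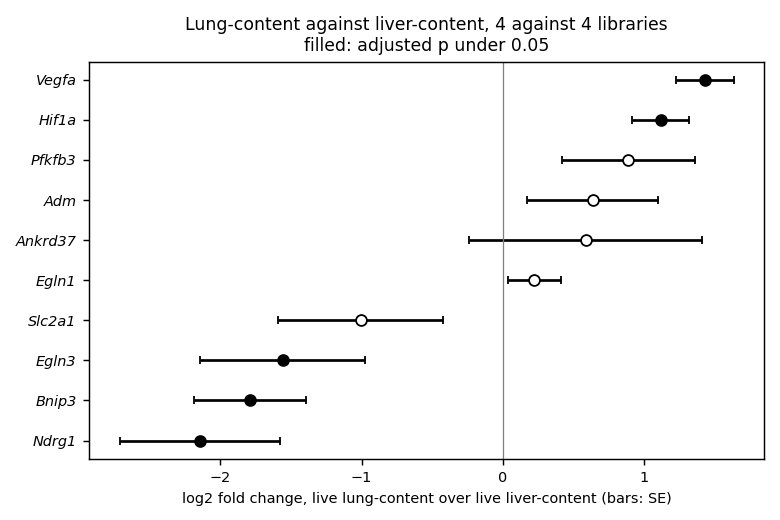
Log2 fold change of lung-content over liver-content libraries of live pups for the 10 genes, with bars of 1 SE. Vegfa (1.43) and Hif1a (1.12) lie to the lung side, and Ndrg1 (-2.14), Bnip3 (-1.79) and Egln3 (-1.56) to the liver side of 0.

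Other genes of the pathway, listed by role, were set beside these. Of the 10 tested HIF subunits and oxygen sensors, 5 were higher and 1 was lower in lung content (median log2 fold change 0.53, all genes -0.05). They included Epas1, the HIF-2α subunit prominent in endothelium, at 3.01 (SE 0.40, adjusted p = 4.29e-05, edgeR) and Arnt2 at 2.75 (SE 0.44), Hif1an, the asparaginyl hydroxylase, at 1.09 (SE 0.19), and Cul2, a subunit of the VHL ligase, at -0.65 (SE 0.14). Glycolysis and lactate genes went the other way, with 14 of 18 lower and 1 higher (median -1.74). Lactate dehydrogenase A (Ldha) was at -3.58 (SE 0.24), Pgk1 at -2.98, Tpi1 at -2.64 and Gapdh at -2.59. Receptors and ligands for VEGF and adrenomedullin were higher in lung content for 13 of 14 genes and lower for 1 (median 2.80), led by Calcrl (3.75, SE 0.23) and Ramp2 (3.14, SE 0.21), which together form an adrenomedullin receptor, and by Nrp2 (2.89) and Tek (2.77). Endothelial markers summed to 1127 to 1634 CPM in all lung-content and 132 to 219 CPM in all liver-content libraries, and their part in the receptor values was not tested. The 32 other HIF targets had no common direction, with 10 higher and 11 lower (median -0.16): Vldlr was at 4.05 and Igfbp1 at -10.39, with Hmox1 at -3.22 and Ak4 at -3.09.

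The next comparison was of NAC with placebo. Pfkfb3, Ndrg1, Slc2a1, Egln3 and Egln1 were higher with NAC than with placebo in each of 6 pairs of libraries, and Pfkfb3 and Ndrg1 passed the test across all genes. A pair holds the NAC and the placebo library of the same pup group and content. Live WT, live heterozygous and dead heterozygous pups gave a pair in each content. The 6 pairs come from 3 pup groups, and lung and liver RNA of a pup group and treatment may share pups. The fit kept pup group and content as a block and was added after the data had been seen. It counted the 6 pairs as separate, and so overstates the independent pools where pups are shared. Pup group and treatment are as labelled and were not checked. NAC and placebo also differed in label agreement within each pair: NAC libraries had the labelled content in the 4 pairs from live pups, and placebo libraries did in the 2 pairs from dead heterozygous pups.

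Pfkfb3 was read at 85.8 CPM with NAC and 34.7 CPM with placebo in lung content of live WT pups, 85.9 and 26.3 CPM in live heterozygous pups, and 94.7 and 22.8 CPM in dead heterozygous pups. In liver content the same pairs read 84.5 and 18.0, 26.9 and 10.01, and 45.9 and 21.8 CPM. Every NAC library lay above its placebo partner, by 2.11 to 4.69 times, and in lung content all 3 NAC libraries lay above all 4 placebo libraries. The fitted log2 fold change was 1.64 (SE 0.17, adjusted p = 0.0229, edgeR). Ndrg1 was read at 59.9 and 32.0, 60.6 and 23.6, and 98.6 and 24.1 CPM in the lung-content pairs and at 496 and 125, 185 and 71.5, and 387 and 171 CPM in the liver-content pairs. Its ratios were 1.87 to 4.10, and its log2 fold change was 1.48 (SE 0.18, adjusted p = 0.0229). The unpaired dead null placebo library of lung content, with Ndrg1 at 122 CPM, was above all 3 NAC libraries, and its Pfkfb3 level of 67.5 CPM was below them. In this fit 2 of the 10 genes were called, both higher, where 0.254% of all genes were called, 0.226% higher and 0.0282% lower. Both calls rested on all live pups being in the fit: without live WT pups Pfkfb3 was at 1.58 (adjusted p = 0.147) and Ndrg1 at 1.49 (0.165), and without live heterozygous pups at 1.68 (0.164) and 1.55 (0.188). Without dead heterozygous pups Pfkfb3 was called and Ndrg1 was at 1.41 (adjusted p = 0.0583), and with library size alone as the scaling Ndrg1 was at 1.34 (0.0635).

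Slc2a1 had the highest fitted value of the 10, at 1.87 (SE 0.32), and missed the threshold (adjusted p = 0.0598). It read 87.8 and 22.7, 57.8 and 15.4, and 161 and 16.8 CPM in lung content and 199.5 and 51.5, 98.4 and 25.6, and 146 and 135 CPM in liver content (NAC and placebo of live WT, live heterozygous and dead heterozygous pups). The 4 pairs from live pups had ratios near each other, 3.76 to 3.88, and the dead heterozygous pairs held both the highest (9.62, lung content) and the lowest (1.08, liver content). Egln3 was higher with NAC by 1.14 to 5.41 times (log2 fold change 1.19, SE 0.32, adjusted p = 0.132) and Egln1 by 1.02 to 1.56 times (0.36, SE 0.12, adjusted p = 0.188). Altogether 5 of the 10 genes were higher with NAC in 6 of 6 pairs, against 4.29% of all genes, and Adm, Bnip3 and Ankrd37 were higher in 5 of 6, against 14.1%. Hif1a was higher in 4 pairs and Vegfa in 2. The median log2 fold change of the 10 genes was 1.32 and that of all genes -0.02.

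**Figure D3:**
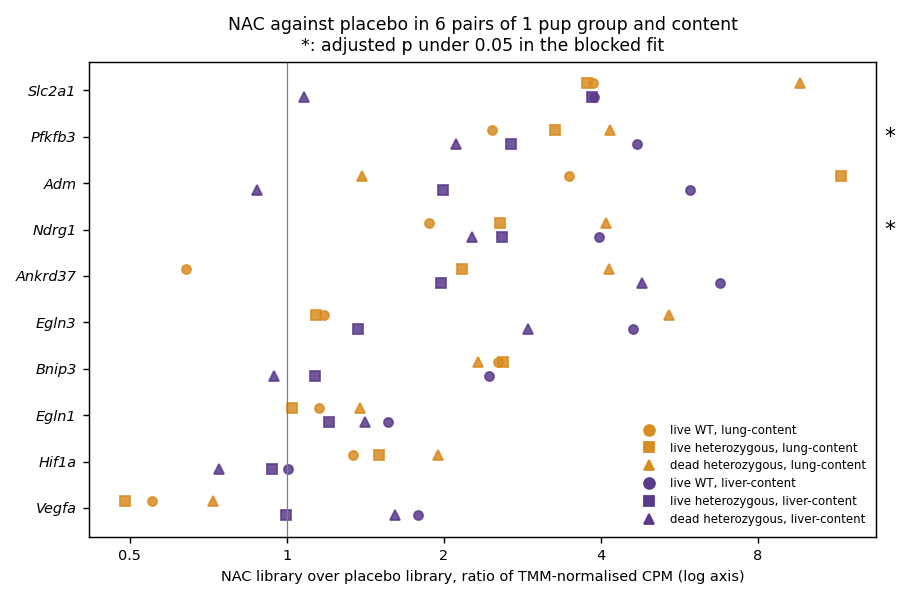
Ratio of the NAC to the placebo library in CPM, on a log axis, for the 10 genes in the 6 NAC and placebo pairs. Each point is a pair of a pup group and content. Points of Pfkfb3, Ndrg1, Slc2a1, Egln3 and Egln1 lie on the side of higher NAC levels in all 6 pairs. Those of Vegfa lie on the side of higher placebo levels in the 3 lung-content pairs.

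Adm, Bnip3 and Ankrd37 were each lower with NAC in 1 pair. Adm ranged from 0.878 times (dead heterozygous, liver content, 5.45 and 6.21 CPM) to 11.5 times (live heterozygous, lung content, 17.0 and 1.47 CPM), and the latter placebo library held only 17 Adm counts. Its log2 fold change was 1.49 (SE 0.44, adjusted p = 0.150, edgeR). Bnip3 was 2.33 to 2.60 times as high with NAC in the 3 lung-content pairs and 0.946 to 2.44 times in the liver-content pairs (0.90, SE 0.23, adjusted p = 0.118). Ankrd37 ran from 0.641 times in live WT lung content to 6.76 times in live WT liver content (1.45, SE 0.42, adjusted p = 0.146).

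The change of Vegfa with NAC differed between the 2 contents, and that of Hif1a missed the threshold. Vegfa was lower with NAC in 3 of 3 lung-content pairs, at 279 and 505, 237 and 484, and 325 and 451 CPM, and all 3 NAC libraries of lung content lay below all 4 placebo libraries, the fourth being the dead null library at 599 CPM. In liver content it was higher in 2 of 3 pairs, at 204 and 115 CPM in live WT and 153 and 94.6 CPM in dead heterozygous pups, with 112 CPM in both live heterozygous libraries. The difference between contents in the NAC to placebo log2 change was -1.30 (SE 0.29, adjusted p = 0.0353, edgeR, a term added after seeing the data), where 4.85% of all genes were called and 26.8% had an unadjusted p under 0.05. Of the 10 genes Vegfa alone passed, and it did not without live WT pups (-1.11, adjusted p = 0.137) or without live heterozygous pups (-1.45, adjusted p = 0.207). Hif1a was higher with NAC in 3 of 3 lung-content pairs, 116 and 86.7, 135 and 90.2, and 172 and 88.0 CPM, while its mean log2 difference was -0.17 in liver content and 0.65 in lung content. That difference of 0.82 had an adjusted p of 0.0648. Among all libraries of lung content Hif1a and Pfkfb3 were higher and Vegfa was lower in each of 3 NAC than in each of 4 placebo libraries, an arrangement held by 28.9% of all genes. Among liver-content libraries, Egln1 and Egln3 were higher in each of 5 NAC than in each of 3 placebo libraries, as 1.68% of genes were in either direction. The 5 include both dead null NAC libraries, which share their pup group and treatment by label and may share pups.

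Within single groups of the joint fit no call was made. In live lung content, 0 of the 10 genes and 0.0141% of all genes (0.00705% higher and 0.00705% lower) were called by edgeR, with 5 of the 10 at an unadjusted p under 0.05 and 3287 genes in all: Adm (log2 fold change 2.43, SE 0.66, adjusted p = 0.103), Vegfa (-0.93, SE 0.29, adjusted p = 0.121), Bnip3 (1.36, SE 0.55), Slc2a1 (1.94, SE 0.85) and Pfkfb3 (1.50, SE 0.67). DESeq2 called 2 of the 10 and 928 of all genes there, and edgeR on libraries of lung content alone called 2 of the 10 and 2269 of all genes. Here 7 of the 10 genes did not overlap between 2 NAC and 2 placebo libraries, against 69.5% of all genes. In live liver content 0 of the 10 and 0.0% of genes were called (794 at an unadjusted p under 0.05), and Adm (2.12), Pfkfb3 (1.99), Slc2a1 (1.95) and Ndrg1 (1.80) had an adjusted p of 0.748. In that group 7 of the 10 did not overlap, all higher with NAC, against 49.7% of genes in either direction. In dead pups the arms were 1 NAC library against 2 placebo libraries in lung content and 3 NAC libraries against 1 in liver content. The 3 include both dead null NAC libraries, which share their pup group and treatment by label and may share pups. The lone library is assumed to vary like the others, so the fit says little in dead pups. There 0 of the 10 and 0.0% of genes were called in either content, with 862 genes of lung content and 463 of liver content at an unadjusted p under 0.05; Hif1a in lung content (0.96, SE 0.34, adjusted p = 0.775) was the only one of the 10 among them.

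A test that sets a fixed biological coefficient of variation of 0.2, since no group has replicates, compared the 2 libraries of each pair and speaks of those libraries only (adjusted p under 0.05 and at least a 2-fold change by edgeR's exact test). In live WT pups it called 4 of the 10 genes in lung content (4.09% of all genes) and 7 in liver content (4.52%). In live heterozygous pups it called 5 in lung content (10.7%) and 1, Slc2a1, in liver content (1.23%). In dead heterozygous pups it called 5 in lung content (4.08%) and 2, Egln3 and Ankrd37, in liver content (0.811%). Slc2a1 was called in 5 of the 6 pairs and Egln1, Hif1a and Vegfa in none. Read by tissue label in place of content, each of the 8 NAC and placebo pairs crosses contents, and the same test called 58.75% of the 80 gene-by-pair tests. It called 6 of the 10 genes in live WT lung-labelled libraries (53.4% of all genes) and 7 in liver-labelled ones (47.4%). The counts were 7 (57.3%) and 6 (47.7%) for live heterozygous, 6 (48.4%) and 5 (48.7%) for dead heterozygous, and 5 (43.0%) and 5 (53.0%) for dead null pups, lung label first. Vegfa was called in 8 of 8 labelled pairs, each time higher in the library with lung or mixed content. Bnip3 and Ndrg1 were called in 5 each and Egln3 in 4, each time higher in the liver-content library, and Egln1 in 0.

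Few further genes of the pathway were called with NAC in the 6 pairs. Of 10 HIF subunits and oxygen sensors 1 was called, Hif3a, a HIF alpha subunit whose isoforms can restrain the others (log2 fold change 1.88, SE 0.31, adjusted p = 0.0472, edgeR). Of 18 glycolysis and lactate genes 1 was called, the hexokinase Hk2 (1.35, SE 0.22, adjusted p = 0.0472), and their median was 0.48. None of 32 other HIF targets passed (median 0.40), and among those with the smallest p were Ddit4 (1.92, SE 0.49), Lox (1.50, SE 0.36) and P4ha2 (1.11, SE 0.21). None of 14 receptors and ligands passed (median -0.11).

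Neutrophil and red cell markers moved in the same pairs. All 5 neutrophil markers (S100a8, S100a9, Mpo, Elane and Ltf) were higher with NAC in 6 of 6 pairs. In these pairs their sum was 147 to 199 CPM with NAC and 81.6 to 110 CPM with placebo in lung content. In liver content it was 2785 to 3594 CPM with NAC and 1905 to 2657 CPM with placebo. The unpaired dead null NAC libraries of liver content were at 3402 and 2129 CPM. Of the red cell markers, Slc4a1, the red cell anion exchanger, was higher with NAC in 5 of 6 pairs. Their part in the values of Pfkfb3, Ndrg1 and Slc2a1 was not tested. Muscle genes also differed between liver-content libraries, with a sum of 423 CPM for live WT NAC and 183 CPM for dead heterozygous NAC against 7.23 CPM for live WT placebo and 72.0 CPM for dead heterozygous placebo, while the live heterozygous pair went the other way, at 7.93 CPM with NAC and 23.3 CPM with placebo.

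Dead pups were then compared with live pups within each content, to ask whether these genes differed with outcome. Live libraries were WT or heterozygous and dead libraries heterozygous or null, so genotype differed along with outcome. No gene of the 10 passed in either content, and none of the 10 separated the dead from the live libraries. In lung content edgeR called 0 of the 10 and 0.0% of all genes (424 at an unadjusted p under 0.05, and DESeq2 called 13 genes, none of the 10). Slc2a1 was at 161, 16.8 and 108 CPM in the dead and 87.8, 57.8, 22.7 and 15.4 CPM in the live libraries, with a log2 fold change of 1.42 (SE 0.64, adjusted p = 1.00). The dead placebo heterozygous library lay among the lowest and the other dead libraries were the highest. Egln3 was likewise at 33.9 CPM (dead heterozygous NAC) and 54.7 CPM (dead null placebo) above, and at 6.27 CPM (dead heterozygous placebo) below, the live range of 8.67 to 19.8 CPM. The median log2 fold change of the 10 genes was 0.69 and that of all genes -0.01. In liver content 0 of the 10 and 0.0776% of genes were called (1812 at an unadjusted p under 0.05), and the median of the 10 was 0.05. Without the dead null NAC library labelled liver, the one nearest to the Alb limit, 686 genes and still 0 of the 10 were called there. Of the listed genes, Insig2, a regulator of sterol synthesis, was called there (1.21, SE 0.14, adjusted p = 0.00846). Non-overlap between dead and live libraries held for 0 of the 10 genes and for 2.76% of all genes in lung and 2.55% in liver content. The dead against live change differed between contents for 0 of the 10 and 0.0% of genes (edgeR, 1175 at an unadjusted p under 0.05).

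Within a content most of these genes varied more between pools than the median gene did, with Egln1 in both contents and Hif1a in liver content below or near it. The median SD of log2(CPM + 1) was 0.90 over 7 lung-content and 0.78 over 8 liver-content libraries for the 10 genes, and 0.30 and 0.32 for all genes tested. Slc2a1 had an SD of 1.34 in lung and 1.12 in liver content, and Ankrd37 of 1.12 and 1.07, above 98.3% of all genes or more. At the other end were Egln1 (0.28 and 0.26), Hif1a (0.39 and 0.32) and Vegfa (0.50 and 0.34). A few libraries stood at the ends of the order. The live WT NAC library was the highest of 8 liver-content libraries for 9 of the 10 genes, as it was for 13.5% of all genes, and the dead null placebo library was the highest of 7 in lung content for 6, as for 9.79% of all genes. Live heterozygous placebo libraries were the lowest for 6 of the 10 genes in each content, as for 14.3% of all genes in lung and 14.6% in liver content.

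**Figure D4:**
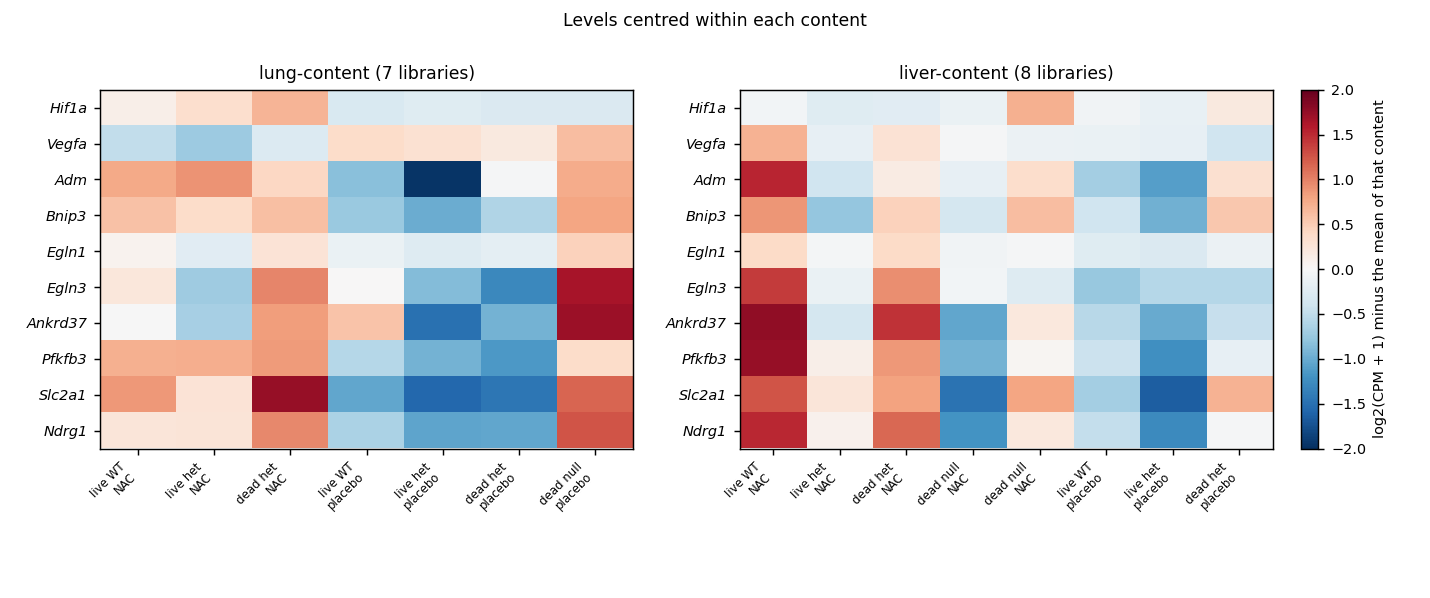
Level of the 10 genes in each library with a content, as log2(CPM + 1) minus the mean of that content, so that 0 is the content mean. In liver content the live WT NAC library is the highest for 9 genes, and in lung content the dead null placebo library is the highest for 6.

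The gene most like each of the 10 was named by the highest Pearson r over 15 libraries after subtracting the content mean, among genes averaging 10 CPM or more. For Egln3 it was Egln1 (r = 0.95) and for Egln1 the glycolytic aldolase Aldoa (0.96). Bnip3 was nearest to Lox, the collagen cross-linking lysyl oxidase (0.95), and Slc2a1 to the amino acid transporter chain Slc3a2 (0.96). Pfkfb3 was nearest to the kinase gene Pim1 (0.95), Ndrg1 to Wdfy1 (0.95), Hif1a to Bambi (0.96), Ankrd37 to Ppp1r3b (0.93), Adm to Dapk1 (0.90) and Vegfa to Rbms3 (0.90). Each is the highest of very many correlations over few libraries and is given as a description.

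Slc2a1 followed the red cell gene Slc4a1 within each content, but in lung content it did not follow the other red cell markers as closely. GLUT1 is abundant in erythroid cells, and newborn mouse liver still makes red cells. Over 7 lung-content libraries log2(CPM + 1) of Slc2a1 and Slc4a1 had r = 0.96 (exact permutation p = 0.000794, rho = 0.93, exact permutation p = 0.00675), and r = 0.97 without the 2 libraries farthest from the median Slc4a1 level. Over 8 liver-content libraries r was 0.95 (exact permutation p = 0.00107, rho = 0.88, exact permutation p = 0.00724), and 0.78 without the 2 farthest. The 8 include both dead null NAC libraries, so the permutation treats libraries of the same pup group and treatment as independent. Among 80 relations of the 10 genes with 4 marker genes in the 2 contents, those of Slc2a1 with Slc4a1 had an adjusted p of 0.0317 each (Benjamini-Hochberg over exact permutation p), and 3 of the 80 were below 0.05. The relation was looked at after the values had been seen. With the haemoglobin genes Hbb-bt and Hba-a1 and the haem synthesis gene Alas2, Slc2a1 had r of 0.98, 0.97 and 0.98 in liver content and of 0.23, 0.52 and 0.12 in lung content, given as a description. The dead heterozygous placebo library of lung content had Slc2a1 at 16.8 CPM, next to the lowest, with the highest Hbb-bt (1470 CPM) and Alas2 (422 CPM) of the 7 and a red cell marker sum of 8722 CPM. The level of Slc4a1 per Slc2a1 was 0.90 to 2.41 in lung-content and 9.53 to 23.9 in liver-content libraries. Red cell markers summed to 3493 to 8973 CPM in lung content and 6180 to 35603 CPM in liver content, with the top value in the live WT NAC library that also led 9 of the 10 genes. The part of red cells in the Slc2a1 values was not tested.

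**Figure D5:**
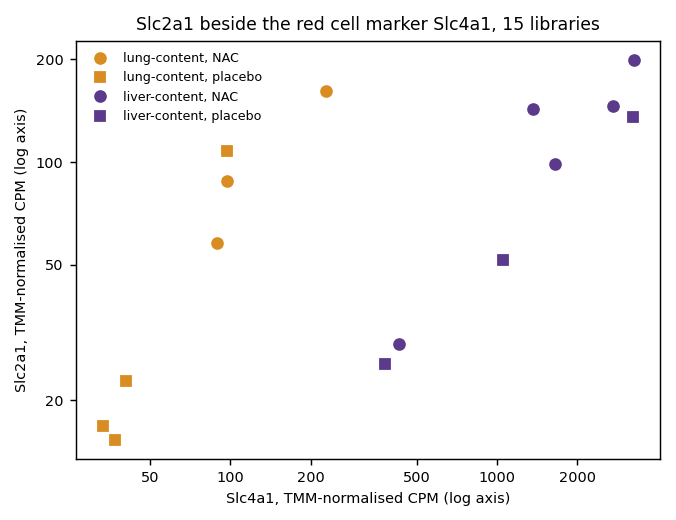
Slc2a1 against Slc4a1 in 15 libraries, both as CPM on log axes, by content and treatment. Within each content libraries with more Slc4a1 have more Slc2a1, and liver-content libraries carry 9.53 to 23.9 times as much Slc4a1 as Slc2a1 against 0.90 to 2.41 times in lung content.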

How the data were processed

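RNA of newborn mouse lung and liver was sequenced from polyA-selected stranded libraries (TruSeq), 1 library for each of 16 pools. Per the paper's methods and the labels, the authors aligned reads with the OSA aligner in Array Studio to mouse build 38 (mm10 in the submitters' processing notes, which also name R 4.0.3 and edgeR 3.30.3) and deposited gene-level estimated counts (expected counts, of which 6.28 to 7.98% per library were not whole numbers, unnormalised). Use of strand in counting was not given in the sources used here. The ribosomal transcript Rn45s took 0.85 to 26.19% of counts.

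From these, counts were rounded, 14184 genes averaging 1 CPM or more were kept, and TMM-scaled CPM gave the levels. A quasi-likelihood fit (edgeR 4.0.16, R 4.3.3) on all 16 libraries held 9 cells of outcome, treatment and content, leaving 7 residual degrees of freedom, with adjusted p under 0.05 called. Libraries were grouped by marker content (Sftpc at or above 1000 CPM with Alb below 1000, or Alb at or above 50000) because labels and content differed. Libraries of 1 group are different pools, of different genotypes in some groups, so p-values measure the spread between pools. Libraries that share a pup group and treatment by label are an exception, since they may come from the same pups. They are the dead null NAC libraries of liver content, and the lung-content and liver-content libraries of a pup group and treatment. The fit of 16 libraries and the 6-pair fit counted them as separate. Those fits overstate the independent pools where pups are shared. Following the study's own test, an exact test with a coefficient of variation of 0.2 and at least a 2-fold change compared single libraries. Fits with a block, of 12 libraries in 6 NAC and placebo pairs and of 8 live libraries in 4 lung and liver pairs, were added after seeing the data. No library pair of 1 content agreed within counting noise. DESeq2 1.42.0, other scalings, filters and samples were alternatives. On simulated counts with 200 genes changed 4-fold, the test of NAC against placebo in live lung content recovered 194 and called 11 others, the blocked fit recovered 200 and called 11 others, and the exact test on 1 labelled pair recovered 168 and called 10 others. Those counts had a fixed coefficient of variation of 0.2 and the same mean for all pools of a cell. Their changed genes left out the least abundant. They lack the further spread between real pools, so recovery in the real libraries is not known. Coordinates and exon lengths come from GENCODE M21 and promoters from RefSeq (GRCm38.p6). Numbers from 16 libraries without repeats are limited by that design more than by depth, although Adm and Ankrd37 were read at as few as 17 and 18 counts. The genes named are the 10 members in every comparison, at most 4 of a list by smallest p, and the gene most correlated with each member. The members and lists were chosen with earlier results of these data known.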

Additional observations from a re-analysis of the deposited data

Results flagged for a closer look

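In live liver-content libraries, 4 genes had their highest value in the live WT NAC library, far enough from the other 3 to pass Dixon's 95% limit: Vegfa at 204 CPM, Adm at 15.5 CPM, Egln3 at 105 CPM and Ankrd37 at 16.1 CPM. That library also had the highest summed red cell markers of the 8 (35603 CPM) and muscle markers at 423 CPM, and their part was not tested. In dead liver-content libraries, Egln1 stood apart at 59.2 CPM in the dead heterozygous NAC library labelled lung, and Slc2a1 at 29.3 CPM in the dead null NAC library labelled liver, whose red cell markers summed to 6384 CPM. Chance alone passes about 1 in 20 of the 30 groups looked at.

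The change of Vegfa with NAC differed between lung-content and liver-content pairs by -1.30 on the log2 scale (SE 0.29, adjusted p = 0.0353, edgeR), with 0 of 3 lung-content and 2 of 3 liver-content pairs higher with NAC.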

How the results depend on the processing

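The labels give no replicate numbers that pair samples, so the blocks used here are the labelled pup groups, in fits added after seeing the data. Pup group and treatment as a block moved 2 of the 10 genes past the threshold between lung and liver content of live pups, Slc2a1 and Pfkfb3, and ended no call of the 10. For NAC against placebo, without the block on pup group 3 of the 10 genes and 333 of all genes were called for NAC against placebo. Over 36 alternative settings, most values kept their direction and their side of the threshold (214 of the counts and 370 of the single gene values), while 66 counts moved by over 1.5 times, 25 values gained a call, 19 lost it and 6 reversed. Scaling by library size alone moved the median log2 change of all genes to 0.61 (lung against liver content), -0.41 (NAC, live lung content), -0.16 (6 pairs) and -0.32 (difference between contents). The cause of the changes below was not tested.

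Reversed values were Slc2a1 in dead against live lung content, at -2.11 on libraries whose label and content agree, Ankrd37 in lung against liver content (-0.66 on those libraries and -0.29 without the live WT placebo library of lung content), and in the 6-pair fit Hif1a (-0.17) and Vegfa (0.51) on liver-content pairs alone and Vegfa (0.069) without live heterozygous pups. Leaving out a pup group gave -0.27 to 0.069 for Vegfa, and leaving out a library -0.29 to 1.43 for Ankrd37.

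For dead against live lung content, DESeq2 called 13 genes, a fit on that content alone 2 and label-agreeing libraries 1. In liver content (11 genes), library size gave 24, no filter 17, DESeq2 114, the dead null NAC libraries summed 154, heterozygous libraries 18, and content alone, treatment left out, label-agreeing libraries and tissue labels 0, with 0 to 686 on leaving out libraries. The difference of that change between contents gave 1 gene without a filter, 33 by DESeq2, 12 with summed libraries, 1 on heterozygous libraries and 0 to 10 on leaving out libraries. For NAC in live lung content (2 genes, 0 of the 10), RLE gave 45, library size 20, Rn45s left out 50, no filter 86, DESeq2 928 with 2 of the 10, summed libraries 1740 with 1, and content alone 2269 with 2, with 0 to 11 genes on leaving out libraries. In dead lung content library size, summed libraries and content alone gave 1 gene, DESeq2 40, and leaving out libraries 0 to 5, and in dead liver content DESeq2 gave 2. Between lung and liver content 4 to 6 of the 10 and 8889 to 9417 of all genes were called on leaving out libraries.

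For NAC in the 6 pairs (2 of the 10, 36 genes), library size called 1 and 3, DESeq2 7 and 642, no filter 58 genes, lung-content pairs alone 6 and 3785, liver-content pairs alone 0 and 8, and leaving out a pup group 0 to 2 and 1 to 24. For the difference between contents (1 of the 10, 688 genes), DESeq2 called 2 and 1247, and leaving out a pup group 0 to 1 and 0 to 763. A coefficient of variation of 0.4 called 23.75% of the labelled-pair tests in place of 58.75%.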
